A study of Mus musculus with 12 samples.

Results

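Small nucleolar RNA (snoRNA) genes were examined in mouse embryonic stem cells (ESCs) and in embryoid bodies (EBs), the aggregates that ESCs form in suspension when leukaemia inhibitory factor is withdrawn. The members were the genes whose single symbol in the array annotation starts with Snord or Snora, with the feature of highest mean signal taken for each gene, and 51 of 19938 genes on the array met this rule. Of these, 31 were Snord genes and 20 were Snora genes. The 12 arrays fell into 6 groups of 2 labelled biological replicates each: ESC WT, ESC HP1αKO and ESC HP1βKO, and the EBs made from each at day 7. The labels give the line HM1 for WT cells, and the line R1 for the Cbx5-/- (HP1αKO) and the Cbx1-/- (HP1βKO) cells. The study's methods instead name HM1 as the littermate WT control of the knockout lines and list R1 apart from them. By the labels, line and genotype cannot be told apart in any comparison with WT, while EBs and ESCs of 1 genotype share their line. Cbx5 and Cbx1 encode HP1α and HP1β, proteins of silent chromatin that bind methylated histone H3. Each knockout is given as 1 line, ESCs grew on treated feeder fibroblasts and were sorted for SSEA1 with magnetic beads, and all groups went without further treatment.

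SnoRNAs are short noncoding RNAs that act in the nucleolus, where ribosomal RNA is made. Box C/D snoRNAs, the Snord genes, pair with ribosomal RNA and guide 2′-O-methylation by fibrillarin, and box H/ACA snoRNAs, the Snora genes, guide pseudouridylation by dyskerin. A few members of both classes, such as Snord118 (U8), Snord14e (a U14 copy), Snord22 (U22) and Snora73a and Snora73b (U17), are needed for cleavage steps of the ribosomal RNA precursor rather than, or besides, modification. Most mammalian snoRNAs are cut from introns of other genes after splicing, and many of those containing genes encode ribosomal proteins or other parts of the translation machinery.

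This was also the arrangement of the genes measured here. By the positions of the RefSeq gene table, 50 of the 51 members lay within another gene and 1, Snord118, did not. The 40 containing genes (the smallest where several overlapped) comprised 30 protein-coding genes, 16 of them for ribosomal proteins, and 10 long noncoding RNAs. Members were 45 to 205 bases long in the RefSeq table. Of the containing genes, 10 held 2 members each, among them Snhg12, Snhg3, Rps3, Rpl13a, Rpl23a and Ncl. Members of the imprinted Snord115 and Snord116 clusters were not among the 51, and 24 features naming Snord116 were among the 41 snoRNA features left out because they carry several symbols.

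Many snoRNA host genes start at a run of pyrimidines, the feature through which translation of ribosomal protein mRNAs is tuned. The 30 bases around the annotated start (15 on each side) are therefore shown for the 8 genes that hold 2 members each and are in the RefSeq promoter table, read 5′ to 3′ on the strand of the gene in build GRCm38.p6, with the longest run of C and T in capitals.
2410006H16Rik, chr11:62602862-62602891, containing Snord49a and Snord49b: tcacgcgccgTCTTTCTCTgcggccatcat
Rack1, chr11:48800345-48800374, containing Snord95 and Snord96a: cggaggccgCTCTTTCTTTTTCTCCacagg
Rpl13a, chr7:45128731-45128760, containing Snord33 and Snord35a: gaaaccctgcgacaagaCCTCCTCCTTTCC
Snhg12, chr4:132308663-132308692, containing Snora16a and Snora44: ggccgttctcagTCCTTTCTCgcttcatcc
Snhg3, chr4:132353672-132353701, containing Snora73a and Snora73b: tagtcgaccacgcctgaCTTCCgggcgtta
Ncl, chr1:86359441-86359470, containing Snora75 and Snord82: ggCTCCggggacggacgcgagctctggttg
Rps3, chr7:99483695-99483724, containing Snord15a and Snord15b: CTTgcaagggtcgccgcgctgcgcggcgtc
Rps3a1, chr3:86142654-86142683, containing Snord73a and Snord73b: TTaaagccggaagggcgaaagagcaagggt
Rack1 had the longest run of the 8, 16 bases, and 2410006H16Rik and Snhg12, both noncoding, had runs of 9 bases. Over the 30 containing genes in the table, 18 of 32 promoters (56.2%) held at least 6 consecutive pyrimidines in this window on the gene's strand, against 29.2% of all 32851 promoters, and a run on either strand was found in 75% against 56.2%. Runs of at least 8 were found in 31.2% of these promoters and in 12% of all. No match says only that the letters are not in this window of the annotated start.

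Signals are log2 values of the robust multi-array average (RMA), an array summary in which a difference of 1 is a 2-fold change, and levels of different genes were not compared since each has its own probes. Probes that lie in a snoRNA read the snoRNA and any unspliced or unprocessed RNA that still holds it. In these bulk samples fewer cells of a type and less RNA per cell cannot be told apart. A signal of 45 (log2 5.49), the background named in the study's methods, was used as a floor, and 44 members (26 C/D and 18 H/ACA) exceeded it on at least 1 array and were tested among 10880 genes. The 7 others, Snora2b, Snora30, Snord118, Snord58b, Snord61, Snord8 and Snord85, stayed under it on all 12 arrays. Since a member can pass through the state in which it is high, counts are also given for the whole list of 51 where groups are compared within a state or genotype. Of the 44, 16 lay under the floor on both EB WT arrays, and 19 on both arrays of EB HP1αKO and of EB HP1βKO, so for these a fall in EBs is measured at most as a bound. Where the ESC mean lay under the floor too, there is no bound. This held for Snora20 and Snord38a in WT, for both and Snord37 in HP1αKO, and for Snord38a in HP1βKO.

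The checks of the samples were as follows. Cbx1 read 7.59 to 7.99 in the 4 HP1βKO libraries and 9.36 to 10.05 in the others. Cbx5 went against 2 labels: it read 8.29 in the library labelled ESC WT replicate 2 against 9.66 in replicate 1, and 9.99 in the library labelled ESC HP1αKO replicate 2 against 8.04 in replicate 1, while it read 9.20 and 9.21 in EB HP1αKO and 10.36 and 10.40 in EB WT. ESC markers were lower in EBs for 5 of 5 tested in each genotype, among them Pou5f1 and Nanog, and EB markers such as Ttr, Kdr and Hbb-bh1 were higher for 7, 7 and 6 of 7 in WT, HP1αKO and HP1βKO. The ESC marker list holds 6 genes, and the untested one is Fut4, which encodes the enzyme that makes the SSEA1 epitope. Fut4 went the other way, at 3.40 to 4.18 in the 6 ESC libraries and 4.32 to 5.29 in the EB libraries. All of these readings lay under the floor, so this difference is between readings not above background.

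The ESC libraries numbered 2 stood apart from those numbered 1 in the snoRNA genes, in all 3 genotypes. In ESC WT, 41 of the 44 tested members read higher in replicate 2 than in replicate 1, by a median of 1.39, and 32 of them (72.7%) by more than 1, against 4.18% of all genes tested. In ESC HP1αKO 39 of 44 read higher, with a median of 0.77 and 34.1% over 1 against 3.22% of all genes. In ESC HP1βKO 42 of 44 read higher, with a median of 0.99 and 47.7% over 1 against 0.892%. Among the genes tested, the gap was far more frequent in snoRNA genes than in others. Of 10880 genes, 23 read higher in number 2 by more than 1 in all 3 genotypes. Of those 23, 13 (56.5%) were snoRNA genes. These gaps are descriptions of 3 pairs of libraries, with no test. They cover tested members only, and Snora20, Snora69, Snord37, Snord38a and Snord73a exceeded the floor on the ESC arrays numbered 2 alone. All of these but Snora20 are among the 13, so they entered through the libraries in which they are high. Of the untested members, Snord58b, Snord61 and Snord85 read higher in number 2 in all 3 genotypes and Snord118 lower. Snora2b, Snora30 and Snord8 were mixed.

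The largest gap was that of Snord37, a C/D snoRNA in the elongation factor gene Eef2. It read 3.90 and 7.13 in the ESC WT libraries, 4.04 and 6.73 in ESC HP1αKO and 5.05 and 7.00 in ESC HP1βKO. Snord73a, in Rps3a1, read 5.07 and 7.05, 5.36 and 6.84, and 5.10 and 6.81 in the same order. All 3 number 1 libraries lay under the floor for both genes and all 3 number 2 libraries above it. Their EB readings were under it too, so both genes were tested only through the number 2 libraries.

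Not every member followed. Snora16a, an H/ACA snoRNA in Snhg12, read lower in number 2 in all 3 genotypes, by 8.29 to 7.66 in WT, 8.57 to 7.84 in HP1αKO and 8.04 to 7.44 in HP1βKO. Snora44, which lies in the same gene, read higher, by 5.86 to 7.34, 6.10 to 6.92 and 5.62 to 7.43. The members of 1 containing gene thus ran opposite ways between the same libraries. Snora52, in the gene for the ribosomal stalk protein Rplp2, was also lower in number 2 in all 3 genotypes, at 9.74 and 9.14, 9.52 and 9.34, and 9.32 and 9.14.

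The containing genes tested showed no such gap as a set, which was nearly all protein-coding. Over the 23 containing genes tested, the median of number 2 minus number 1 was 0.04 in ESC WT, 0.06 in ESC HP1αKO and -0.04 in ESC HP1βKO, and none differed upward by more than 1. Over all genes tested these medians were 0.07, 0.06 and -0.03. MicroRNA genes, of which 55 of 300 passed the floor, had medians of -0.25, -0.13 and 0.19, and 4 of 10 Scarna, Rnu and Rny genes (small RNAs of Cajal bodies, spliceosomes and Ro particles) had -0.26, -0.28 and -0.39. Across the 44 members the mean gap had a Pearson r of -0.22 with RNA length, as a description over genes that share their libraries. With mean signal the r was -0.53, so members of lower signal tended to have larger gaps.

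Markers of feeder fibroblasts moved with the same libraries in the other direction. Of 9 such markers on the array, 9, 7 and 9 read lower in number 2 in ESC WT, HP1αKO and HP1βKO, and their mean was 6.81 and 4.79 in the WT libraries numbered 1 and 2, 5.96 and 4.87 in HP1αKO and 5.73 and 4.79 in HP1βKO. None of the 9 stayed under the floor on all 12 arrays, and in EBs, where such genes are also expressed by mesenchyme, the mean was 7.12 to 8.27. Of 6 ESC markers 4, 4 and 5 read higher in number 2, as most snoRNA genes did, with medians of 0.57, 0.24 and 0.09. Their part and that of the fibroblast markers in the snoRNA gap was not tested. The genes of the C/D core proteins of snoRNA particles had median gaps of 0.00, -0.05 and 0.02 in WT, HP1αKO and HP1βKO, and those of the H/ACA core proteins -0.02, -0.24 and 0.14. In the EBs the largest gap of a tested member, that of Snord82 in WT, was -0.75, and the medians were -0.06, -0.16 and 0.09.

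**Figure D1:**
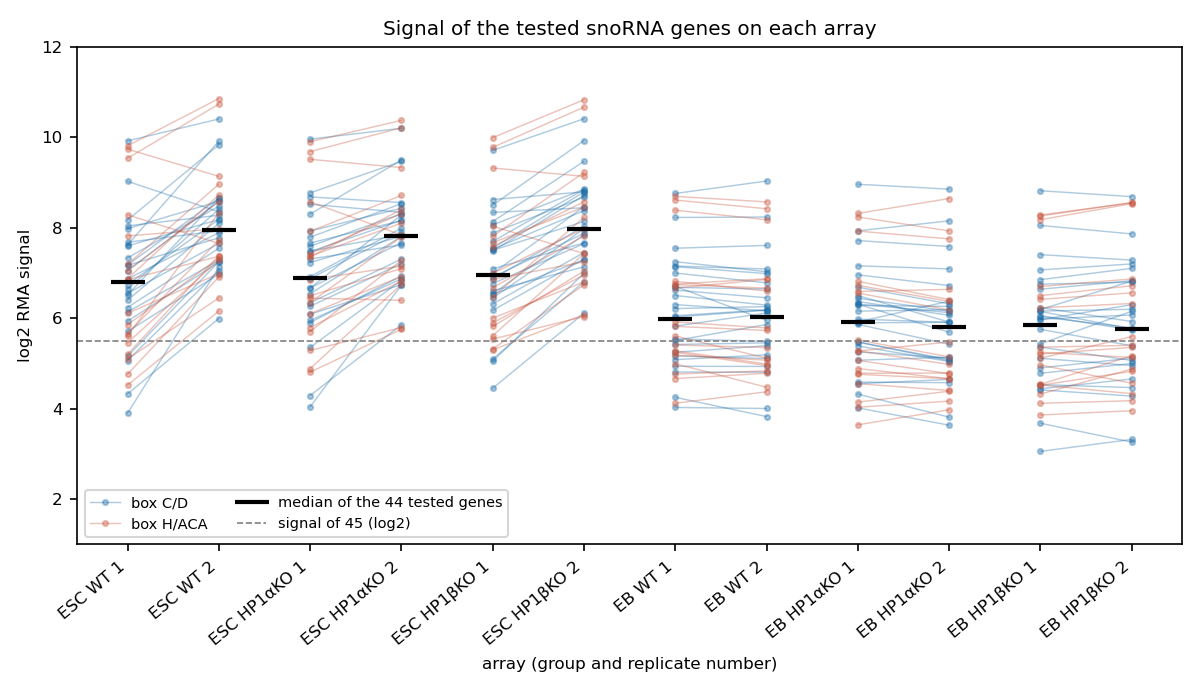
Log2 RMA signal of the 44 tested snoRNA genes on each of the 12 arrays (x axis: group and replicate number), with lines joining the replicates of a group, black bars for the median of the 44 genes and a dashed line at the floor of 45. The medians are 6.80 to 6.95 in the ESC libraries numbered 1, 7.83 to 7.98 in those numbered 2, and 5.76 to 6.04 in the 6 EB libraries.

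**Figure D2:**
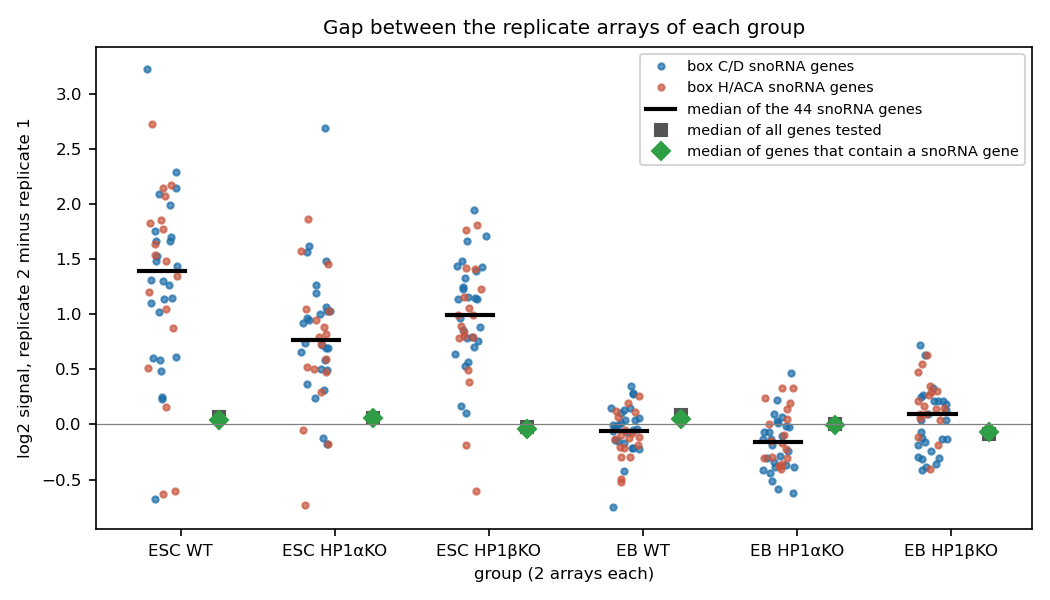
Difference in log2 signal between replicate 2 and replicate 1 of each group (x axis) for the 44 tested snoRNA genes, as points by class with a bar at their median, beside the medians of all genes tested and of the genes that contain a snoRNA gene. The snoRNA medians are 1.39, 0.77 and 0.99 in the 3 ESC groups and between -0.16 and 0.09 in the EB groups, while the other medians stay between -0.09 and 0.09.

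The first comparison asked how snoRNA genes differ between EBs and ESCs of the same genotype. They were lower in EBs in every genotype. Over the whole list of 51, the mean of EBs was below that of ESCs for 50 members in WT, 51 in HP1αKO and 50 in HP1βKO, against 54.5%, 54.3% and 49.7% of all 19938 genes. The median difference over the 51 was -1.25, -1.50 and -1.69 on the log2 scale, against -0.03, -0.03 and 0.00 over all genes. The exceptions were Snord8 in WT (0.00) and Snord61 in HP1βKO (0.16), which lay under the floor throughout. Among the 37 members whose mean over the 12 arrays was above the floor, the medians were -1.29, -1.57 and -1.70, and among the 14 with a lower mean they were -0.71, -0.78 and -1.0.

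By limma's test with Benjamini-Hochberg adjustment over 10880 genes, at n = 2 arrays per group, 22 of the 44 tested members were lower in WT EBs at an adjusted p under 0.05, where 14.2% of all genes tested were called lower. In HP1αKO 29 of 44 were lower (16.5% of all genes), and in HP1βKO 35 of 44 (15.1%). No member was called higher in any genotype. Of the members called lower, 6, 10 and 14 lay under the floor on both EB arrays of their genotype. Among them, Snora20 in HP1αKO and Snord38a in HP1βKO had ESC means of 5.29 and 5.28, also under the floor, so their falls have no bound. With no floor, 21, 27 and 32 of the 51 were called lower, where 8.08%, 9.76% and 8.1% of all 19938 genes were. Both classes took part: 14, 17 and 21 of the 26 C/D genes and 8, 12 and 14 of the 18 H/ACA genes were lower in WT, HP1αKO and HP1βKO. The numbers of members past the threshold in the 3 genotypes were not tested against each other.

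Which ESC libraries were used set the size of the difference. Against the ESC library numbered 1, the median over the 44 tested members was -0.69 and -0.76 for the EB WT libraries, with 39 and 42 of 44 lower, and against the library numbered 2 it was -2.06 and -2.10 with 44 of 44 lower. In HP1αKO the medians were -1.09 and -1.23 against number 1 and -1.86 and -2.17 against number 2, and in HP1βKO -1.29 and -1.20 against -2.31 and -2.25. The direction was thus the same against either ESC library and the size differed by over 1.5 times. The number of members called moved with single libraries. In WT it was 40 of 44 without ESC replicate 1 and 9 without ESC replicate 2, where 18.6% and 9.11% of all genes were called lower, and 10 and 4 without EB replicates 1 and 2, where 6.49% and 7.12% were. In HP1αKO it was 37 and 11 without ESC replicates 1 and 2 (17.4% and 13.4% of all genes) and 16 and 13 without EB replicates 1 and 2 (8.24% and 8.49%). In HP1βKO it was 35 and 14 (11.4% and 9.53%) and 16 and 18 (9.28% and 6.76%) in the same order. The group left with 1 array was assumed to vary as the others. All called members kept their direction in these fits.

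With the EB libraries and the 3 ESC libraries numbered 1 alone, 28, 40 and 43 members were called lower in WT, HP1αKO and HP1βKO, where 19.6%, 23.9% and 24.1% of all genes were. With those numbered 2 alone the counts were 43, 44 and 44, where 28.4%, 28.2% and 25.3% of all genes were called lower. Both fits assume that a lone ESC library varies as the EB libraries do. Without the 2 libraries that Cbx5 set against their labels, 13, 29 and 44 members were called lower, where 14.1%, 19.2% and 23.5% of all genes were. This fit leaves ESC WT and ESC HP1αKO with their number 1 library alone, assumed to vary as the other groups, while ESC HP1βKO keeps both, so these 3 counts cannot be set against each other.

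Of the 44 tested members, 20 were lower in all 3 genotypes, against 923 (8.48%) of all genes. These were Snora16a, Snora33, Snora44, Snora52, Snora62, Snora73a, Snora73b and Snora74a of the H/ACA class and Snord104, Snord15b, Snord22, Snord33, Snord35b, Snord42b, Snord47, Snord49a, Snord49b, Snord52, Snord55 and Snord82 of the C/D class. With 1 library left out at a time, 4 of the 20 passed in every such fit in all 3 genotypes, Snora33, Snora62, Snora73b and Snord49b. Without the libraries of discordant Cbx5 12 of the 20 passed in all 3, and with the ESC libraries of either number alone all 20 did. For these subsets of the 20 the share of all genes was not counted. A further 15 passed in 1 or 2 genotypes on the 12 arrays, and 9 passed in none, again with no count over all genes. The groups of arrays did not overlap, EBs being lower, for 39, 43 and 44 of the 44 in WT, HP1αKO and HP1βKO, where 30.2%, 33.9% and 34.5% of all genes tested behaved so.

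Snora33, an H/ACA snoRNA in the ribosomal protein gene Rps12, gave the lowest adjusted p of the members in each genotype. It read 7.82 and 7.98 in ESC WT, 7.37 and 8.11 in ESC HP1αKO, and 6.99 and 7.98 in ESC HP1βKO, and in EBs it read 5.41 and 5.36 in WT, 5.28 and 4.98 in HP1αKO and 4.97 and 4.57 in HP1βKO. Every EB library lay under the floor and every ESC library above it. The differences were -2.52 ± 0.33 (SE, adjusted p = 0.000532, limma) in WT, -2.61 ± 0.33 (adjusted p = 0.000322) in HP1αKO and -2.72 ± 0.33 (adjusted p = 0.000302) in HP1βKO. With EB arrays set to the floor, expression was at least 5.32-fold, 4.75-fold and 3.99-fold lower in EBs, since a reading under the floor gives only a bound.

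Snord47 lies in Gas5, a growth-arrest transcript with little coding potential that holds many C/D snoRNAs. It read 6.40 and 8.10 in ESC WT, 6.88 and 7.91 in ESC HP1αKO and 6.88 and 8.03 in ESC HP1βKO. In EBs it read 5.54 and 5.49, 5.07 and 5.14, and 4.42 and 4.28 in the same order. The difference was -1.73 ± 0.54 in WT (adjusted p = 0.0338, limma), and in HP1αKO and HP1βKO it was -2.29 ± 0.54 (adjusted p = 0.00895) and -3.10 ± 0.54 (adjusted p = 0.00231). All 4 knockout EB libraries lay under the floor, so these 2 falls are bounds, at least 3.74-fold in HP1αKO and 3.90-fold in HP1βKO.

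The U17 snoRNAs Snora73a and Snora73b, both in Snhg3, ran close together. Snora73b read 9.81 and 10.86 in ESC WT, 9.91 and 10.38 in ESC HP1αKO and 9.99 and 10.83 in ESC HP1βKO, against 8.70 and 8.57, 8.24 and 7.93, and 8.26 and 8.56 in the EBs. Its differences were -1.70 ± 0.36 (adjusted p = 0.00636, limma), -2.05 ± 0.36 and -2.00 ± 0.36, and those of Snora73a were -1.85 ± 0.40, -2.11 ± 0.40 and -1.87 ± 0.40. Sequences of these copies are near identical, and how far each set of probes reads both was not tested.

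Snord49a and Snord49b, C/D snoRNAs of the noncoding gene 2410006H16Rik, fell by different amounts. Snord49a read 8.17 and 9.84, 8.77 and 9.47, and 8.50 and 9.93 in the ESC WT, HP1αKO and HP1βKO libraries and 7.14 and 6.99, 6.96 and 6.73, and 6.76 and 6.80 in the EBs. Its differences were -1.94 ± 0.55, -2.28 ± 0.55 and -2.44 ± 0.55. Snord49b read 9.92 and 10.41, 9.96 and 10.20, and 9.71 and 10.41 in ESCs and 8.76 and 9.04, 8.96 and 8.86, and 8.82 and 8.69 in EBs. Its differences were -1.27 ± 0.24, -1.17 ± 0.24 and -1.31 ± 0.24, and its groups did not overlap in any genotype.

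Other pairs of members in 1 gene also passed together or apart. In the ribosomal protein gene Rpl13a, whose snoRNAs are also known from work on oxidative stress, Snord33 fell by 1.80 ± 0.45 in WT, while Snord35a gave -0.84 ± 0.34 (adjusted p = 0.082, limma). Both were lower in the knockouts, with differences of -2.01 and -2.21 for Snord33 and -1.38 and -1.20 for Snord35a in HP1αKO and HP1βKO. In Ncl, the gene of the nucleolar protein nucleolin, Snord82 was lower in the 3 genotypes, at -1.48 ± 0.35, -1.45 ± 0.35 and -2.16 ± 0.35. Snora75, in the same gene, gave -1.33 ± 0.61 in WT (adjusted p = 0.117) and passed in the knockouts at -2.09 and -2.39. In Rps3, Snord15b was lower in all 3 genotypes (-1.08, -1.25 and -1.26, SE 0.31) and Snord15a passed in none (-1.13, -1.17 and -1.24, SE 0.55), with nearly the same differences and a wider spread between the ESC libraries.

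The smallest falls among the 20 were those of Snord104 and Snora52. Snord104, a C/D snoRNA whose ESC libraries differed by 0.23 at most within a group, read 8.05 and 8.28 in ESC WT, 8.52 and 8.34 in ESC HP1αKO and 8.34 and 8.45 in ESC HP1βKO, against 7.55 and 7.61, 7.72 and 7.59, and 7.41 and 7.29 in EBs. Its differences were -0.58 ± 0.14 (adjusted p = 0.01, limma) in WT, -0.78 ± 0.14 (adjusted p = 0.00193) in HP1αKO and -1.05 ± 0.14 (adjusted p = 0.000458) in HP1βKO. Snora52 and Snora16a, which were higher in the ESC libraries numbered 1, were lower in EBs as well, at -0.92 ± 0.21, -0.94 ± 0.21 and -0.81 ± 0.21 for Snora52 and -1.16 ± 0.29, -1.59 ± 0.29 and -1.45 ± 0.29 for Snora16a. Direction in EBs was therefore the same for members with opposite gaps between the ESC libraries.

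The differences of the remaining members of the 20 ran from -2.36 (Snord42b in HP1βKO) to -1.06 (Snord55 in HP1αKO). Snora62 (E2, in the gene of the ribosomal protein Rpsa) gave -1.26, -1.67 and -1.70 with SE 0.24, and Snord22 (U22, in Snhg1) gave -1.23, -1.65 and -1.74 with SE 0.29. Snora74a (U19, in Snhg4) gave -1.41, -1.64 and -1.12 with SE 0.30. Among the 9 that passed in no genotype, Snord37 gave -1.47 ± 1.09, -1.32 ± 1.09 and -2.55 ± 1.09 and Snord73a -1.25 ± 0.71, -1.50 ± 0.71 and -1.45 ± 0.71, so their differences were as large as those of members that passed and lay within a wide error. Snora21, Snora31, Snora69, Snora70, Snord73b, Snord95 and Snord15a, named above, were the others. Snord57, in the gene of the C/D core protein Nop56, had the smallest difference of the tested members in each genotype (-0.46, -0.58 and -0.75, SE 0.21) and passed in HP1αKO and HP1βKO.

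The 15 members that passed in 1 or 2 genotypes all did so in HP1βKO. Of these, 9 passed in both knockouts and not in WT: Snora20, Snora3, Snora41, Snora75, Snord14e, Snord16a, Snord35a, Snord53 and Snord57. Snord42a and Snord87 passed in WT and HP1βKO, and Snora23, Snora7a, Snord38a and Snord96a in HP1βKO alone. The share of all genes with each of these patterns was not counted. These sets describe which side of the threshold a value fell on. The genotypes were not tested against each other for them beyond the state differences given below.

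Snord14e, a U14 copy in the heat shock cognate gene Hspa8, read 7.62 and 9.92 in ESC WT, 8.30 and 9.50 in ESC HP1αKO and 8.14 and 9.47 in ESC HP1βKO. In EBs it read 7.00 and 6.79, 6.50 and 5.92, and 6.64 and 6.83 in the same order. Its groups did not overlap in any genotype, and the differences were -1.88 ± 0.70 (adjusted p = 0.0626, limma), -2.69 ± 0.70 (adjusted p = 0.0132) and -2.07 ± 0.70 (adjusted p = 0.0436). Hspa8 itself read 12.57 to 12.74 on all 12 arrays.

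Snord87, in the noncoding gene Snhg6, read 6.75 and 8.19, 6.67 and 7.67, and 6.54 and 7.98 in ESCs and 5.51 and 5.86, 5.87 and 5.43, and 5.76 and 5.39 in EBs. Its differences were -1.78 ± 0.56 (adjusted p = 0.0335, limma), -1.53 ± 0.56 (adjusted p = 0.053) and -1.69 ± 0.56 (adjusted p = 0.0401), so the 3 values lay closer together than their error while 1 of them missed the threshold. Snord53, a C/D snoRNA in Wdr43, read 5.16 and 7.25 in ESC WT against 5.17 and 5.11 in EB WT, and the first ESC library lay among the EB libraries. In the knockouts its ESC values of 6.09, 6.75, 6.61 and 7.14 were all above its EB values of 4.59, 4.58, 4.79 and 5.00.

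The 7 members under the floor carry little information on levels. Snord118, the U8 RNA needed for maturation of the large subunit's ribosomal RNAs and the 1 member outside another gene, read 4.31 and 3.31 in ESC WT, 3.66 and 3.33 in ESC HP1αKO and 3.86 and 3.31 in ESC HP1βKO, and 2.73 to 3.32 in EBs. It was lower in the ESC libraries numbered 2, as Snora16a was. Snord58b, in Rpl17, read 2.93 and 4.11, 2.64 and 4.36, and 2.98 and 3.80 in ESCs, higher in number 2 in all 3 genotypes, and 2.42 to 2.77 in EBs. Snora2b, Snora30, Snord61, Snord8 and Snord85 read 2.73 to 5.12 over all arrays.

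**Figure D3:**
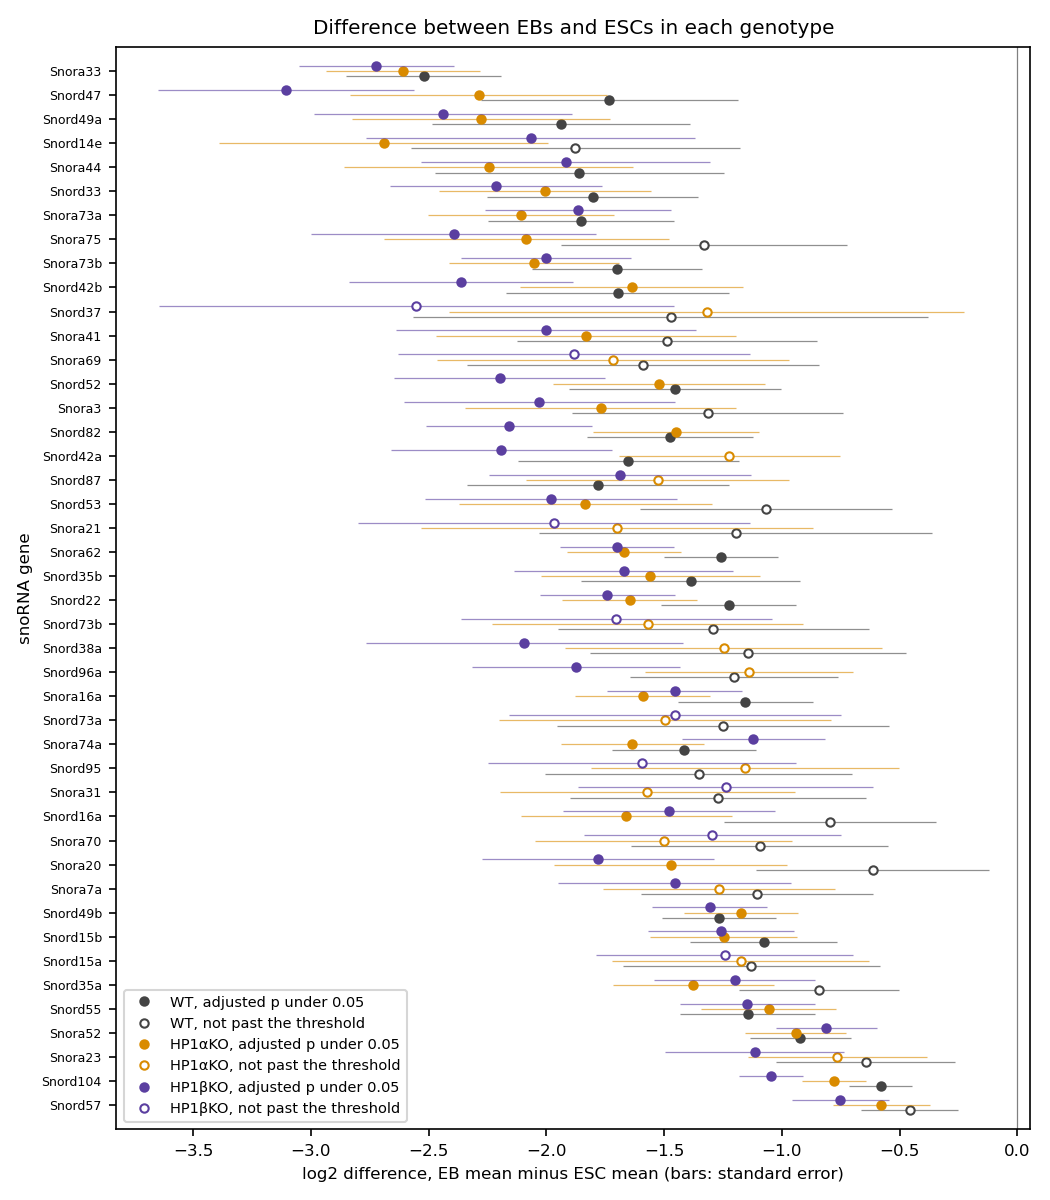
Difference between EB and ESC means on the log2 scale (x axis, bars: standard error, n = 2 arrays per group) for each of the 44 tested snoRNA genes (y axis) in WT, HP1αKO and HP1βKO, with filled points where the adjusted p was under 0.05. All points lie below 0, from -0.46 for Snord57 in WT to -3.10 for Snord47 in HP1βKO, and those of members under the floor in EBs show the measured readings.

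The second comparison set each knockout against WT in EBs. No member passed the threshold in either. In HP1βKO, where 3.24% of all genes tested were called, 43 of the 51 members lay below WT with a median difference of -0.22, against 44% of all genes and a median of 0.03. In HP1αKO, where 1.24% of all genes were called, 41 of 51 lay below WT with a median of -0.20, against 48% and 0.01. Both comparisons use the same EB WT libraries. Marker lists also differed between these EBs: of 9 fibroblast markers 8 lay above WT in HP1βKO (median 0.94, none called) and 9 in HP1αKO (median 1.00, 1 called), with list means of 7.12 and 7.29 in EB WT against 7.98 to 8.27 in the knockouts. Of 5 tested ESC markers 2 were called higher in HP1βKO (median 0.73), and 1 higher and 1 lower in HP1αKO (median -1.19), and of 7 EB markers 1 was higher and 2 were lower in each. Their part in the snoRNA values was not tested. No tested member had an unadjusted p under 0.05 in either comparison by limma, and the typical SE of a member (median 0.47) was larger than the median difference.

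The members with the lowest p were Snord47, Snora62, Snord22, Snora16a and Snora33 in HP1βKO and Snora62, Snora20, Snord22, Snora73b and Snord16a in HP1αKO. For Snord47 the 6 EB values above gave -1.17 ± 0.54 in HP1βKO (adjusted p = 0.431, limma) and -0.41 ± 0.54 in HP1αKO (adjusted p = 0.991), with both HP1βKO libraries below both HP1αKO libraries and these below both WT libraries. Its knockout readings lay under the floor and its EB WT readings, 5.54 and 5.49, close to it. Snora62 read 5.92 and 5.79 in EB WT, 5.52 and 5.15 in EB HP1αKO and 5.12 and 5.60 in EB HP1βKO, which gave -0.52 ± 0.24 (adjusted p = 0.64) and -0.50 ± 0.24 (adjusted p = 0.461) for HP1αKO and HP1βKO. Snord22 read 6.69 and 6.65, 6.16 and 6.19, and 6.24 and 5.93 in the same order, a difference of -0.49 ± 0.29 and -0.58 ± 0.29. Snora20, an H/ACA snoRNA in the chaperonin gene Tcp1, read 4.67 and 4.79 in EB WT, 3.65 and 3.98 in EB HP1αKO and 3.86 and 3.96 in EB HP1βKO, all under the floor.

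Groups did not overlap, knockout EBs being lower, for 23 of the 44 tested members in HP1βKO, where 28.9% of all genes behaved so, and for 25 in HP1αKO, where 23.8% did. Knockout EBs were higher without overlap for 0 members in HP1βKO and 2 in HP1αKO, against 27.5% and 34.9% of all genes. In HP1αKO all 18 tested H/ACA genes lay below WT, with a median of -0.34, and 18 of 26 C/D genes did, with a median of -0.17. In HP1βKO the medians were -0.25 for H/ACA and -0.24 for C/D genes. The classes were not tested against each other.

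These calls differed with the arrays used in the fit. On 12 arrays limma shared 1 estimate of the spread per gene over ESCs and EBs, and the ESC replicates of these genes lay far apart. Why the calls differed was not tested. With the 6 EB libraries alone, 11 of 44 members were lower in HP1βKO, where 9.36% of all genes were called lower, and 8 in HP1αKO, where 5.09% were. None was higher. In HP1βKO these were Snora16a, Snora20, Snora21, Snora23, Snora33, Snora41, Snord22, Snord38a, Snord42a, Snord47 and Snord73a, with Snord47 at -1.17 ± 0.09 (adjusted p = 0.000149, limma on 6 arrays). Of the 11, 7 lay under the floor on all 4 arrays compared, and their differences are between readings not above background: Snora20, Snora23, Snora33, Snora41, Snord38a, Snord42a and Snord73a. Snora21 and Snord47 lay under it on both HP1βKO arrays, and Snord47 read close to it in EB WT (5.54 and 5.49). In HP1αKO the 8 were Snora20, Snora21, Snora73b, Snord16a, Snord22, Snord47, Snord53 and Snord73b, of which Snora20 and Snord53 lay under the floor on all 4 arrays. With the floor applied to the 6 EB arrays, which left 28 members among 10273 genes, 4 were lower in HP1βKO, where 10.1% of all genes were: Snora16a (-0.54 ± 0.09), Snora21 (-0.39 ± 0.10), Snord22 (-0.58 ± 0.11) and Snord47. In HP1αKO 7 were lower, where 5.42% of all genes were: Snora21, Snora73b, Snord14e, Snord16a, Snord22, Snord47 and Snord73b, from -0.33 (Snord73b) to -0.68 (Snord14e). With array weights on the 12 arrays 3 and 2 members passed in HP1βKO and HP1αKO, where 13.2% and 15.5% of all genes did. With the replicate number as a block within each state, 3 members were lower in HP1βKO EBs, Snora16a, Snord47 and, under the floor, Snord38a, where 2.27% of all genes were called lower, and none passed in HP1αKO EBs.

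**Figure D4:**
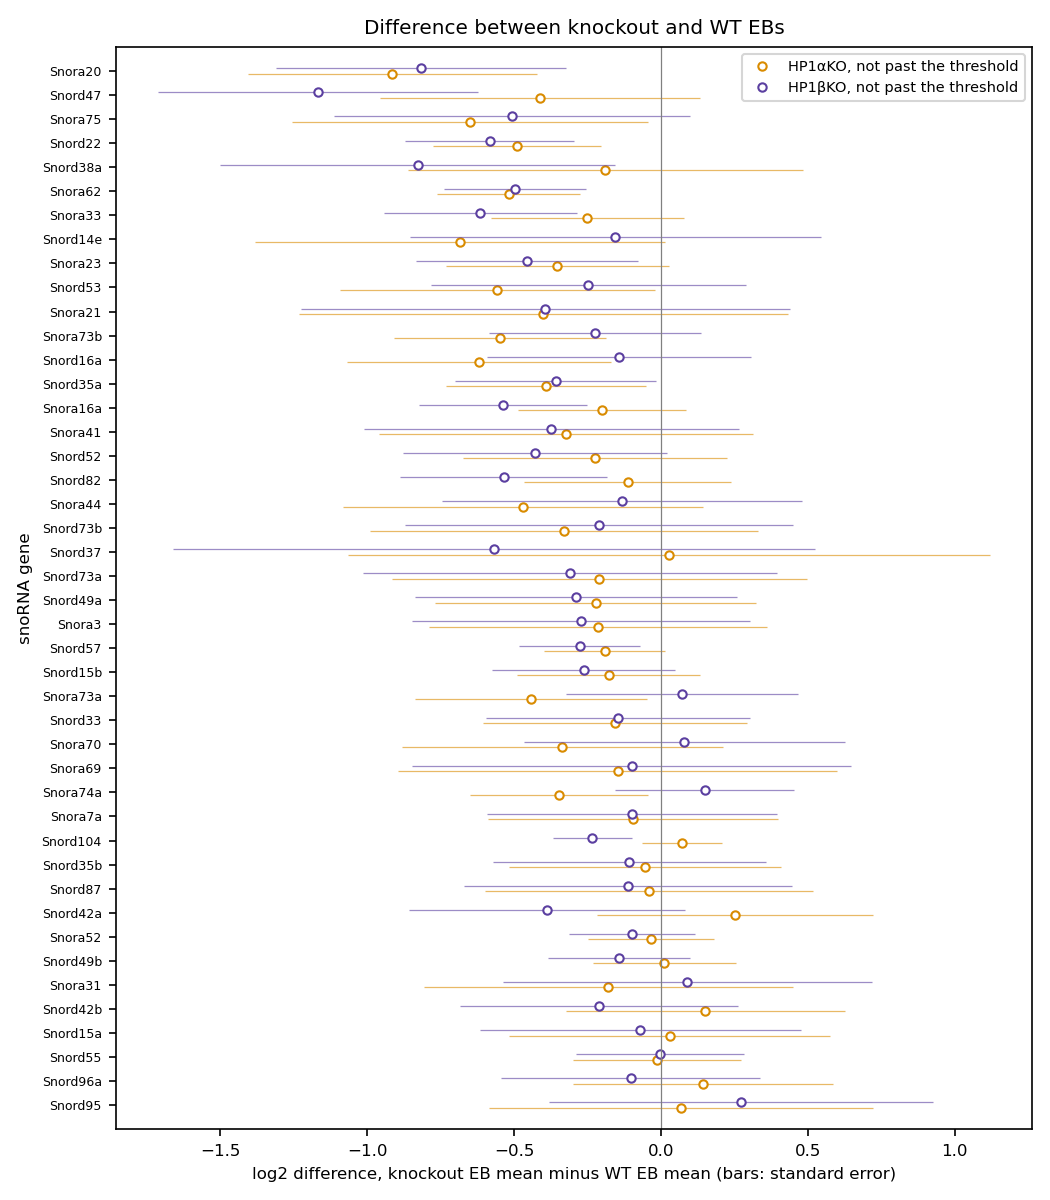
Difference between knockout and WT EB means on the log2 scale (x axis, bars: standard error from the fit on all 12 arrays, n = 2 arrays per group) for each of the 44 tested snoRNA genes (y axis). No gene passed the threshold in this fit, and most points lie below 0 with bars that reach it, Snord47 in HP1βKO having the lowest value at -1.17.

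The knockout EBs were also compared with each other. HP1βKO minus HP1αKO gave a median of -0.05 over the 51 members, with 27 below 0, against 44.3% of all genes, and no tested member passed where 3.73% of all genes did. One member (1), Snord104, had an unadjusted p under 0.05, at -0.31 ± 0.14 (adjusted p = 0.362, limma). On the 6 EB libraries alone 6 members passed: Snora73a (0.52) and Snora74a (0.50) were higher in HP1βKO than in HP1αKO, and Snora16a, Snord38a, Snord42a and Snord47 were lower, at -0.34, -0.64, -0.64 and -0.76, where 8.3% and 11.6% of all genes were called higher and lower. Snora74a, Snord38a, Snord42a and Snord47 lay under the floor on all 4 arrays compared. With the floor applied to the EB arrays 5 passed: Snora73a and Snord16a (0.48) were higher and Snora16a, Snord42b (-0.36) and Snord47 lower, where 8.29% and 12.1% of all genes were. With array weights 4 passed, where 21.2% of all genes did. With the replicate block within state 2 were lower, Snord42a and Snord47, where 3.46% of all genes were. Of the members of Rpl23a, Snord42a stayed under the floor in EBs and read 4.94 and 4.94 in EB WT, 5.26 and 5.12 in EB HP1αKO and 4.44 and 4.66 in EB HP1βKO, while Snord42b read 6.06 and 6.19, 6.29 and 6.26, and 6.04 and 5.79.

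In ESCs no member passed in either knockout. HP1βKO minus WT had a median of 0.12 over the 51 members with 18 below 0, and HP1αKO minus WT a median of -0.02 with 28 below 0, where 0% of all genes were called in both. Of all 19938 genes, 50.6% and 48.7% lay below 0. The lowest p in both was that of Snord104, at 0.23 ± 0.14 in HP1βKO (adjusted p = 0.91, limma) and 0.27 ± 0.14 in HP1αKO (adjusted p = 1), with both libraries of each knockout above both WT libraries. It was followed in HP1βKO by Snord96a (0.57 ± 0.44), Snora33 (-0.41 ± 0.33), Snord53 (0.67 ± 0.54) and Snord16a (0.54 ± 0.45), whose groups overlapped. No member had an unadjusted p under 0.05 in these by limma, and none passed on the 6 ESC libraries alone, where 0% of all genes were called too. Within the libraries numbered 1 the median over the tested members was 0.27 for HP1βKO and 0.23 for HP1αKO, and within those numbered 2 it was -0.00 and -0.21. These medians were smaller than the median gap between the 2 libraries of a group, and for HP1αKO the sign differed between the numbers. Without the libraries labelled ESC WT replicate 2 and ESC HP1αKO replicate 2, 1 member, Snord53, was higher in HP1βKO than in WT ESCs (1.71 ± 0.21, adjusted p = 0.0205, limma), where 0.597% of all genes were called higher. That fit sets the number 1 WT library alone, assumed to vary as the other groups, against HP1βKO libraries of both numbers, and Snord53 read higher in number 2 in all 3 genotypes, so number and genotype cannot be told apart in it. HP1βKO minus HP1αKO in ESCs had a median of 0.10 with 16 of 51 below 0, against 51.5% of all genes, and no member passed where 0.00919% of all genes did.

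Whether the knockout difference depended on the state was tested directly. For HP1βKO, the EB difference minus the ESC difference had a median of -0.38 over the 44 tested members, against -0.0016 over all genes tested. Of the 44, 40 lay below 0, a share not counted for all genes, and none passed where 1.3% of all genes did. Snord104 had the lowest p, at -0.46 ± 0.19 (unadjusted p = 0.0373, adjusted p = 0.384, limma), and was the 1 member with an unadjusted p under 0.05. Leaving out the 2 libraries with discordant Cbx5 gave 3 members past the threshold, Snora20 (-1.99 ± 0.37), Snord47 (-2.22 ± 0.49) and Snord53 (-1.96 ± 0.27), where 2.75% of all genes were called lower. Here too ESC WT was 1 library of number 1 against HP1βKO libraries of both numbers. With the ESC libraries numbered 1 alone 15 members passed, all lower, where 8.96% of all genes were called lower, among them Snora20 (-1.59 ± 0.21), Snord47 (-1.64 ± 0.15) and Snord53 (-1.69 ± 0.17). With those numbered 2 alone 3 did, Snord38a, Snord47 (-1.10 ± 0.15) and Snord57, where 6.59% were. In both fits each ESC group is 1 library, assumed to vary as the EB libraries do. With the replicate block within state 1 passed, Snord47 at -1.37 ± 0.25 (adjusted p = 0.0246, limma), where 1.56% of all genes were called lower. The EB readings of Snord47 in all of these fits lay close to or under the floor. For HP1αKO the median was -0.21 with 35 of 44 below 0, against a median of 0.01 over all genes tested. None passed where 0.23% of all genes did, and none had an unadjusted p under 0.05. With the ESC libraries numbered 1 alone 11 members were lower (5.08% of all genes were called lower), and with those numbered 2 none was (5.22%).

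The containing genes were compared with their snoRNAs. For 24 pairs, over 20 containing genes, both were tested. From ESCs to EBs, the median difference of the snoRNA genes in these pairs was -1.27 in WT, -1.57 in HP1αKO and -1.88 in HP1βKO, and that of their containing genes was -0.08, -0.16 and -0.20. The snoRNA gene had the lower difference in 23, 24 and 24 of the 24 pairs. Of the 20 containing genes 5, 6 and 5 were lower in EBs and none was higher. Across pairs the difference of the snoRNA gene and that of its containing gene had a Pearson r of 0.04, 0.26 and 0.42, a description over pairs that share libraries and, in part, containing genes.

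Most containing genes for ribosomal proteins and elongation factors did not pass the test. Rpl23a read 11.48 and 11.58 in ESC WT and 11.58 and 11.75 in EB WT (0.13 ± 0.12, adjusted p = 0.422, limma), while Snord42a and Snord42b within it were lower, at -1.65 ± 0.47 and -1.70 ± 0.47. Rps12 was lower in WT by a difference of -0.38 ± 0.13 (adjusted p = 0.0424), against -2.52 for Snora33. Rpsa gave -0.00 ± 0.12, against -1.26 for Snora62.

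Some containing genes were lower in EBs, though not always where their snoRNAs passed. Ncl read 11.72 and 11.57 in ESC WT and 11.12 and 11.24 in EB WT, a difference of -0.47 ± 0.14 (adjusted p = 0.0243, limma). Wdr43, a ribosome biogenesis factor that contains Snord53, gave -0.78 ± 0.13 (adjusted p = 0.00167), and Nop56 -0.50 ± 0.17 (adjusted p = 0.047). In WT, where these 3 genes passed, Snora75 in Ncl, Snord53 in Wdr43 and Snord57 in Nop56 did not, while Snord82 in Ncl did, and Nop56 did not pass in the knockouts, where Snord57 did. Gas5 read 10.51 and 11.13 in ESC WT, 10.57 and 11.06 in ESC HP1αKO and 10.52 and 11.22 in ESC HP1βKO, against 9.79 and 9.63, 9.45 and 9.35, and 9.48 and 9.49 in EBs. Its differences were -1.11 ± 0.27, -1.41 ± 0.27 and -1.38 ± 0.27, all past the threshold, and it read higher in the ESC libraries numbered 2, as Snord47 did. In knockout against WT EBs none of the 20 containing genes passed in either comparison.

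**Figure D5:**
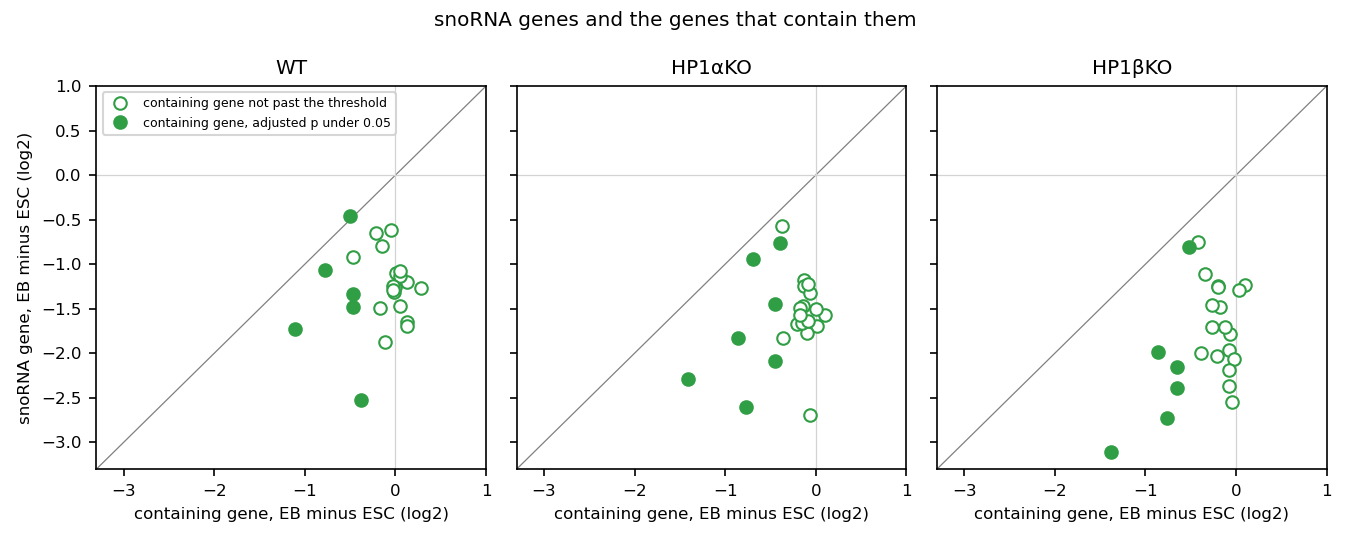
EB minus ESC difference on the log2 scale of each tested snoRNA gene (y axis) against that of the gene containing it (x axis) for the 24 pairs in WT, HP1αKO and HP1βKO, filled where the containing gene passed the threshold; the grey diagonal marks equal differences. All but 1 point in WT and all points in the knockouts lie below the diagonal, most with the containing gene near 0.

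Over fixed lists of host genes that were not restricted to the members, 12, 16 and 14 of 42 tested coding snoRNA hosts were lower in EBs of WT, HP1αKO and HP1βKO and 2, 1 and 0 were higher, with medians of -0.10, -0.33 and -0.21. Of 8 tested noncoding hosts 4 were lower in each genotype and none was higher, with medians of -0.90, -1.36 and -1.13. Snhg5 was lower at -0.90 ± 0.24, -1.38 ± 0.24 and -1.51 ± 0.24 and Snhg16 at -1.43 ± 0.38, -1.32 ± 0.38 and -1.97 ± 0.38, while Snhg17 gave -0.54, -0.54 and -0.42 with SE 0.35 and passed in none.

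The genes that encode the proteins of snoRNA particles gave lower RNA signals in EBs, by smaller amounts. Each C/D particle holds the methyltransferase fibrillarin (Fbl) with Nop56, Nop58 and Snu13, and each H/ACA particle the pseudouridine synthase dyskerin (Dkc1) with Gar1, Nhp2 and Nop10. Of the 4 C/D core genes 4, 3 and 3 were lower in WT, HP1αKO and HP1βKO EBs, with medians of -0.51, -0.41 and -0.46, and of the 4 H/ACA core genes 4, 3 and 4, with medians of -0.78, -0.65 and -0.87. The exceptions were Nop56 (-0.37 and -0.42, SE 0.17) in the knockouts and Gar1 (-0.36, SE 0.15) in HP1αKO.

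Fbl read 9.94 to 10.04 in the 6 ESC libraries and 9.39 to 9.62 in the 6 EB libraries, differences of -0.53 ± 0.12 (adjusted p = 0.00744, limma), -0.45 ± 0.12 and -0.49 ± 0.12. Dkc1 read 10.21 and 10.16, 10.22 and 10.07, and 10.04 and 10.32 in ESCs and 9.23 and 9.37, 9.41 and 9.43, and 9.27 and 9.14 in EBs, differences of -0.89 ± 0.14 (adjusted p = 0.00127), -0.72 ± 0.14 and -0.97 ± 0.14. No ESC value of either gene overlapped an EB value.

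Of 13 snoRNA particle assembly factors 7, 8 and 8 were lower and none higher, and of 10 genes for snoRNA processing and decay 3, 4 and 3 were lower and none higher. Of 31 genes of ribosomal RNA transcription and processing 20, 22 and 23 were lower, with medians of -0.55, -0.57 and -0.59, where 14.2%, 16.5% and 15.1% of all genes were. None of the particle core, assembly, processing or ribosomal RNA genes of these lists passed in either knockout against WT in EBs. Other small RNA genes did not share the count of the snoRNA genes: of the 55 tested microRNA genes 3, 5 and 8 were lower and 2, 0 and 0 higher in EBs, with medians of -0.22, -0.31 and -0.06, and of the 4 tested Scarna, Rnu and Rny genes none was lower and 1, 0 and 1 were higher.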

How the data were processed

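Single-channel arrays were used, 2 for each of 6 groups. Per the labels, the authors made the values with Affymetrix Expression Console and RMA (versions were not stated); the deposited log2 signals (1.55 to 13.63) were used as given. Probe annotation for Mouse Gene 1.0 ST arrays matched the identifiers, although an exon array is named in the methods. Of 35556 features, 21789 carry 1 symbol, 1621 several and 12146 none; 1 feature per gene, that of highest mean, left 19938 genes; 10880 of them were tested, having a signal over 45 on 1 array or more. RNA came from a silica column kit, which keeps short RNA less well than long RNA; its part in these values was not tested. The number of arrays limits the precision.

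limma 3.58.1 (R 4.3.3) fitted 6 group means on 12 arrays (6 residual degrees of freedom) with empirical Bayes moderation. Tests were two-sided, with Benjamini-Hochberg adjustment per comparison over all genes tested and calls at an adjusted p under 0.05. The fit was tested on simulated data. Replicates are labelled biological, with no word on separate cultures, so p-values may measure only the spread between these samples. Same-numbered ESC libraries deviated together over all genes (correlations of replicate differences 0.40, 0.50 and 0.30) and same-numbered EB libraries did not (0.11, -0.45 and -0.09). Alternatives were array centring, other floors, the mean of a gene's features, fewer arrays, array weights, an intensity trend, a replicate block and leaving out libraries; the fits on ESC libraries of 1 number, and on EB arrays with the floor applied to them, were chosen after seeing the data.

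The members and lists were chosen with earlier results of these data known. Named members are all those called in a comparison if at most 20, otherwise the 10 largest rises and 10 largest falls; a comparison with no call names the 5 of lowest p. The 5 of highest mean signal, a rule of choice and no comparison of levels (Snord49b, Snora73b, Snora73a, Snora52 and Snord57), members of the lists and containing genes were added; other names were chosen after their values were seen. All 51 symbols matched RefSeq by gene number, and containing genes were found from its positions without strand. Promoter sequences are RefSeq's, and snoRNA sequences were not used here.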

Additional observations from a re-analysis of the deposited data

How the results depend on the processing

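For the fit on the 4 WT arrays given here, the share of all genes called was not counted. In every EB minus ESC fit run, all called members were lower in EBs. Their number in WT, 22 on 12 arrays, was 12 on the 4 WT arrays alone, 13 without the 2 libraries with discordant Cbx5 and 43 with the ESC libraries numbered 2 alone, where HP1αKO gave 44 against 29. Leaving out 1 replicate at a time gave 4 to 40 in WT, 11 to 37 in HP1αKO and 14 to 35 in HP1βKO. No member passed in any comparison of a knockout in this leave-one-out set but the HP1βKO state difference, with 0 to 1. In EBs, where no member passed on 12 arrays, HP1βKO minus WT gave 11, HP1αKO minus WT 8 and HP1βKO minus HP1αKO 6 on the 6 EB arrays, and 3, 2 and 4 with array weights. The replicate block within state gave 3 in HP1βKO minus WT, 2 in HP1βKO minus HP1αKO and 1 in the HP1βKO state difference, and moved no other count by more than 1.5 times, nor did the block over 12 arrays. With the floor applied to the 6 EB arrays the 3 comparisons gave 4, 7 and 5. The HP1βKO state difference gave 15 and 3 with the ESC libraries numbered 1 and 2 alone, and that of HP1αKO 11 with number 1. Without the discordant libraries 1 member passed in ESC HP1βKO minus WT and 3 in the HP1βKO state difference. Centring each array moved the median of all genes between EBs and ESCs from 0.05 to -0.08 in WT and that of the members to -1.41. The cause of these changes was not tested, beyond fewer samples where libraries were left out.

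Signs turned only for ESC differences that had not passed. Leaving out 1 replicate at a time, HP1βKO minus WT ran from -0.0663 to 1.20 for Snord96a, -0.38 to 1.71 for Snord53, -0.20 to 1.28 for Snord16a and -0.91 to 0.0809 for Snora33. HP1αKO minus WT ran from -0.13 to 0.60 for Snora16a, -0.91 to 0.44 for Snora23, -0.49 to 0.99 for Snord16a and -0.72 to 0.33 for Snora73b. HP1βKO minus HP1αKO ran from -0.0271 to 1.00 for Snord96a and -2e-04 to 0.945 for Snord52. Without the discordant libraries, HP1αKO minus WT was 0.19 for Snora23 and 0.0908 for Snora73b. Of the other differences of named members 981 kept direction and call, 57 lost the call and 42 gained it. Signal over background limits the members under the floor in EBs, whose falls are bounds at most.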
